A study of Mus musculus with 16 samples.

Results

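The 10 genes described here encode plasma membrane carriers of neutral amino acids, and were chosen by symbol: Slc7a5, Slc3a2, Slc1a5, Slc1a4, Slc38a1, Slc38a2, Slc38a4, Slc6a9, Slc7a6 and Slc43a1. All 10 were found once in each of 16 mRNA tables, among 52916 symbols that all tables share. The libraries came from HM1 tumours, a mouse ovarian cancer model, by bulk RNA sequencing. Whole tumour tissue gave 5 libraries from mice supplemented with mannose, a simple sugar, and 5 from controls. CD8 T cells, the cytotoxic T cells, sorted from HM1 tumours gave 3 mannose and 3 control libraries. The labels name no strain, age, dose, duration or sort gate, and do not tie libraries to animals. The p-values therefore cover only how far these samples spread, which may be technical. Whether any group received the anti-PD-1 antibody of the series title is not given either. Values are TPM, a relative level corrected for transcript length that can be compared between genes, and errors are standard deviations (SD) between libraries.

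Amino acid transporters let a cell import what it cannot make and trade what it has in excess. Slc7a5 and Slc7a6 are light chains that do the transport and that reach the cell surface only when bound to the heavy chain Slc3a2, also known as CD98. Slc1a5 and Slc1a4 exchange small neutral amino acids with sodium, Slc1a5 being a main carrier of glutamine, and Slc38a1, Slc38a2 and Slc38a4 bring small neutral amino acids in along the sodium gradient. Tumour cells and activated T cells both raise several of these carriers, since leucine and glutamine feed growth and are sensed by the kinase complex mTORC1, and the transcription factor ATF4 is known to switch on a number of them when amino acids run short.

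Between 12345 and 13820 symbols reached 1 TPM in a tumour library and between 13538 and 14384 in a CD8 library, and read depth is unknown because TPM keep no library totals. Control tumour 1 stood apart: its correlation with the other controls lay between 0.937 and 0.954, against 0.961 to 0.983 for the other pairs of tumours within a group. The columns of all 6 CD8 tables are headed as mannose samples, the 3 tables labelled as control included. The labels were followed, and each CD8 result below rests on them. Over 165 T cell receptor V segment genes, replicates 1 and 2 had a Pearson r of log2(TPM + 1) of 0.956 in mannose and 0.910 in control CD8 libraries, against 0.586 and 0.640 to 0.641 with replicate 3. Results of the CD8 libraries are therefore also given with replicates 1 and 2 of each group averaged into 1 library. The 10 T cell marker genes summed to between 2438 and 4705 TPM in the mannose CD8 libraries and between 4687 and 5070 TPM in the control CD8 libraries, against 22.9 to 103.9 TPM in mannose tumours and 7.74 to 54.4 TPM in control tumours. Markers of other cell types were also present in the sorted cells and differed between the groups. The 11 macrophage and monocyte markers summed to 1196 to 1576 TPM in mannose CD8 libraries and 4369 to 4676 TPM in control CD8 libraries. Their sums were 2359 to 4778 TPM in mannose tumours and 1718 to 3026 TPM in control tumours. Carcinoma and epithelial markers summed to 1634 to 2505 TPM in mannose CD8 libraries and 241 to 537 TPM in control CD8 libraries. In tumours they summed to 3110 to 4078 TPM with mannose and 3239 to 5262 TPM in control. Of these markers, Epcam, Krt7, Cldn4 and Cldn7 were under 1 TPM in every library, tumours included. In bulk samples, fewer cells of a type and less RNA per cell cannot be told apart.

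The first question was how much of each transporter the tumours hold. Slc3a2 was the most abundant of the 10, at 120 ± 10.2 TPM in mannose tumours and 141 ± 21.0 TPM in control tumours (SD, n = 5 each). It made up 34.7% of the summed TPM of the 10 genes in mannose tumours and 39.0% in control tumours, and lay above 92.6% of the genes with a mean of at least 1 TPM in mannose tumours and above 93.6% of them in control tumours. Slc38a4, a sodium-coupled carrier best known from liver and placenta and paternally expressed in mice, came next with 82.4 ± 8.96 TPM in mannose tumours and 86.4 ± 12.1 TPM in control tumours. Slc38a2 followed with 52.9 ± 3.12 TPM in mannose tumours and 49.3 ± 13.0 TPM in control tumours. These 3 genes did not overlap with each other in either group.

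The glutamine carrier Slc1a5 and the leucine carrier Slc7a5 formed the next pair, and their libraries overlapped in both groups. Slc1a5 averaged 33.5 ± 4.91 TPM in mannose tumours and 32.3 ± 8.18 TPM in control tumours, and Slc7a5 averaged 30.5 ± 5.58 TPM in mannose tumours and 28.9 ± 9.98 TPM in control tumours. Slc7a6, the light chain that swaps cationic for neutral amino acids, and Slc1a4 were near 10 TPM and overlapped with each other. Slc38a1, at 3.57 ± 0.94 TPM in mannose tumours and 2.66 ± 1.08 TPM in control tumours, and the glycine carrier Slc6a9, at 1.70 ± 0.34 TPM in mannose tumours and 2.09 ± 0.89 TPM in control tumours, were low. Slc43a1, which lets large neutral amino acids pass without an exchange partner, was the lowest of all, at 1.24 ± 1.05 TPM in mannose tumours and 0.59 ± 0.22 TPM in control tumours.

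In whole tumours no transporter differed between mannose and control beyond the spread between libraries. Slc7a5 had 33.51, 38.9, 27.44, 25.82 and 26.79 TPM in mannose tumours 1 to 5, against 15.19, 25.53, 42.1, 27.9 and 33.78 TPM in control tumours 1 to 5. Every mannose tumour lay inside the range of the controls. Its log2 difference, mannose minus control on the log2(TPM + 1) scale, was 0.13 with a 95% interval of -0.38 to 0.64. Slc3a2 had 124.97, 125.6, 131.94, 112.33 and 107.38 TPM in mannose tumours, against 131.36, 122.87, 158.35, 122.44 and 167.52 TPM in control tumours. The mannose tumours 4 and 5 were below all controls and control tumours 3 and 5 above all mannose tumours. The difference of -0.21 had an interval of -0.46 to 0.04 and did not pass (limma, adjusted p = 0.754).

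The remaining tumour values overlapped as well. Slc1a5 had 32.12, 40.96, 27.27, 33.86 and 33.2 TPM in mannose tumours, against 19.84, 36.44, 41.74, 30 and 33.35 TPM in control tumours. Both ends of its range belonged to controls. Slc38a4 had 79.6, 97.14, 72.97, 82.77 and 79.75 TPM in mannose tumours, against 64.93, 90.77, 89.54, 93.97 and 92.83 TPM in control tumours. Control tumours 2 to 5 lay within 89.5 and 94.0 TPM, and mannose tumour 2 was the only mannose library above them. The log2 difference of Slc38a4 was -0.06 with an interval of -0.33 to 0.21. Slc38a1 had 4.18, 3.73, 4.68, 2.44 and 2.8 TPM in mannose tumours, against 1.02, 2.53, 3.7, 2.47 and 3.57 TPM in control tumours. Its 3 highest libraries were mannose tumours, and its difference of 0.36, the largest among those tested, had an interval of -0.17 to 0.88 and an adjusted p of 0.757 by limma.

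Across the tumours, 0 of 13282 genes tested passed at an adjusted p of 0.05 in either direction, which is 0.0% of them, and 827 genes, or 6.23%, had an unadjusted p under 0.05. Of the 10 transporters, 9 reached 1 TPM in at least 5 libraries and were tested. None of the 9 passed, and 0 of them had an unadjusted p under 0.05. The 9 had a median log2 difference of 0.08, against 0.12 for all genes tested. Groups that did not overlap were found for 1.63% of all genes and for 0 of the 10 transporters. Slc43a1 was the untested member: it reached 1 TPM in 3 mannose tumours, with 2.99 TPM in mannose tumour 3, and in 0 control tumours.

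**Figure D1:**
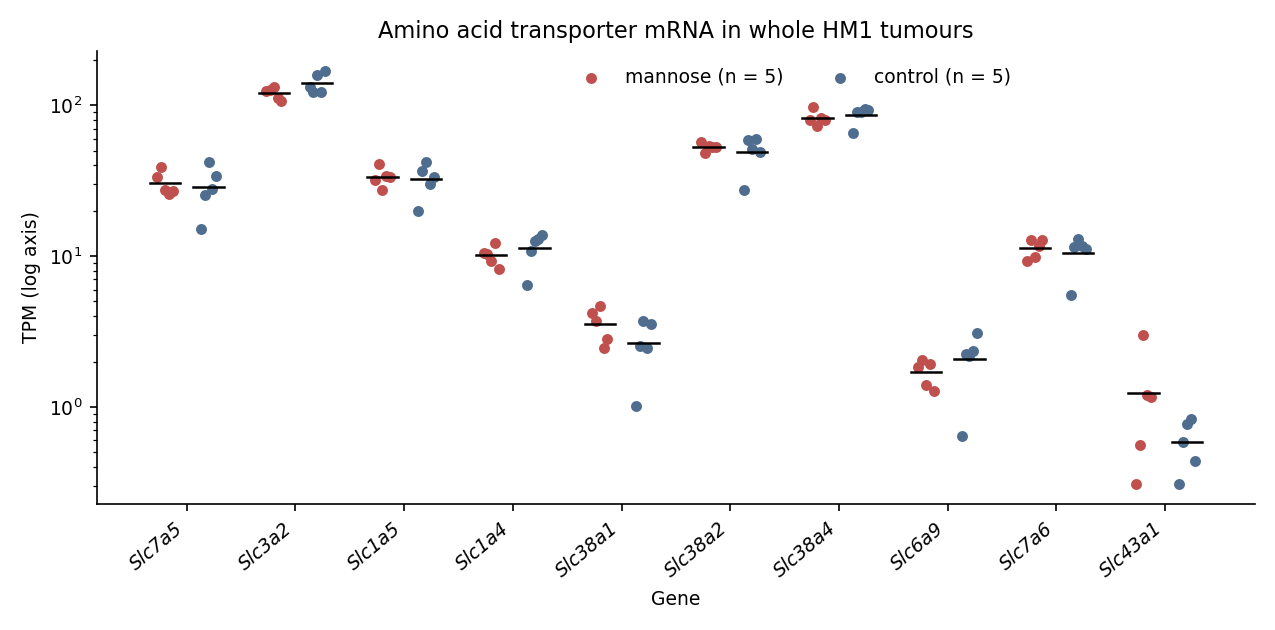
TPM of the 10 transporter genes in whole HM1 tumours, on a log axis, with 1 point per library (5 mannose on the left of each pair, 5 control on the right) and a bar at the mean. The groups overlap for every gene, and the lowest control point of 9 of the 10 genes is control tumour 1.

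Control tumour 1 was the lowest control for 9 of the 10 transporters, the exception being Slc3a2, and none of the 10 was highest there. Leaving out Slc43a1, the coefficient of variation (SD as a percent of the mean) had a median of 14.6% over the genes in mannose tumours and 26.4% in control tumours, and 14.1% in the 4 other control tumours. For Slc38a4 it was 10.9% in mannose tumours, 14.04% in all control tumours and 2.17% in the 4 others. Without control tumour 1 the log2 difference of Slc7a5 was -0.07, that of Slc1a5 -0.08, that of Slc38a2 -0.05 and that of Slc7a6 -0.06, all of them negative where the full comparison gave small positive values, and none passed in either.

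Slc3a2 needs a light chain to transport amino acids, so their levels were set beside each other over the 10 tumours. The ratio of Slc3a2 to Slc7a5 TPM had a median of 4.01 (range 3.23 to 4.81) in mannose tumours and 4.81 (3.76 to 8.65) in control tumours. On the log2(TPM + 1) scale Slc3a2 and Slc7a5 had a Pearson r of 0.37 (permutation p = 0.284, adjusted 0.841) and a Spearman rho of 0.48 (permutation p = 0.165, adjusted 0.329), adjusted over 4 light chains. Without control tumours 3 and 5, the 2 libraries farthest from the median of Slc3a2, r was -0.15. Other choices also moved it: r was 0.65 without control tumour 1, 0.17 without control tumour 3 and 0.58 over all 10 with each group centred on its mean, so no steady relation could be read from these tumours. Slc7a6 had an r of -0.06 and a rho of -0.27 with Slc3a2. The other light chains Slc7a8 and Slc7a11 had r of 0.17 and -0.19 and rho of 0.54 and -0.31, and none of the 4 passed by permutation test after adjustment.

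The genes most like 4 of the transporters over the 10 tumours were looked up among 9498 genes with a mean of at least 5 TPM, by Pearson r of log2(TPM + 1). They are a description, since all values share their libraries and control tumour 1 pulls many genes the same way. Slc7a5 was most like Pmpca (r = 0.986), Cdr2l (0.980) and Cad (0.980), and r stayed between 0.954 and 0.970 without control tumour 1. Slc3a2 was most like Bckdha (0.962), Rbm42 (0.951) and Cul7 (0.950). Slc1a5 was most like Ppp1r8 (0.966), Slc27a6 (0.947) and Vkorc1l1 (0.944), whose r was 0.905, 0.881 and 0.848 without that library. Slc38a4 was most like Akap1 (0.924), Tjap1 (0.915) and Trub1 (0.910), whose r was 0.849, 0.840 and 0.904 without control tumour 1.

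In the sorted CD8 cells the transporters divided. Slc38a4, Slc1a4 and Slc38a2 rose with mannose, Slc3a2 and Slc38a1 fell, and Slc7a5, Slc1a5 and Slc7a6 did not pass the test. These 8 genes reached 1 TPM in every CD8 library, and the 5 calls among them make 62.5%, against 34.9% of all 14280 genes tested. Shares of the 8 and of all genes are not like for like, since all genes needed 1 TPM in only 3 CD8 libraries. With the filter at 5 TPM, 38.2% of all genes tested were called. The transporters were also chosen with earlier results of these data known, so no excess of calls can be read from these shares. By direction, 3 of the 8 rose, against 23.2% of all genes, and 2 fell, against 11.7%. The same 5 were the ones whose groups did not overlap, against 51.4% of all genes. With replicates 1 and 2 averaged, 2 of the 8 passed, Slc38a4 and Slc1a4, against 12.5% of all genes. Under other scalings the calls over all genes shifted in direction: rises were 66.4% of the calls here, 53.7% with quantiles made equal between libraries, 54.0% with median-ratio scaling and 91.5% with scaling to T cell markers.

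Slc38a4 changed most among the transporters. It had 81.96, 75.54 and 48.97 TPM in mannose CD8 libraries 1 to 3, against 14.17, 13.42 and 4.12 TPM in control CD8 libraries 1 to 3. The groups were far apart, and replicate 3 was the lowest of each. The log2 difference was 2.72 (SE 0.43, limma, adjusted p = 0.00455), a 6.51-fold ratio of means, and only 12 of the 14280 differences were higher. With replicates 1 and 2 averaged it was 2.86 (adjusted p = 0.0366). Carcinoma markers were also higher in these mannose libraries. Per 100 TPM of those markers, Slc38a4 had 3.00 to 3.52 TPM in mannose CD8 libraries and 1.71 to 2.64 TPM in control CD8 libraries, against 2.04 to 2.56 TPM in mannose tumours and 1.55 to 2.80 TPM in control tumours. Of the carcinoma markers tested in CD8 libraries, 4 of 5 were higher with mannose and Cdh1 was lower. The part of other cells in the difference of Slc38a4 was not tested.

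Slc1a4, an exchanger of alanine, serine, cysteine and threonine, had 13.6, 11.77 and 10.24 TPM in mannose CD8 libraries, against 3.43, 4.13 and 2.47 TPM in control CD8 libraries. No library of the groups overlapped. The log2 difference was 1.58 (SE 0.19, limma, adjusted p = 0.00219), a 3.55-fold ratio of means, and 1.61 with replicates 1 and 2 averaged (adjusted p = 0.0314). Per 100 TPM of carcinoma markers, it had 0.543 to 0.627 TPM in mannose CD8 libraries and 0.639 to 1.03 TPM in control CD8 libraries. The marker sums averaged 2096 TPM with mannose and 436 TPM in control CD8 libraries, a wider gap than that of Slc1a4. The order of the ratio was therefore set by the markers. The same ratio was 0.253 to 0.344 in mannose tumours and 0.153 to 0.332 in control tumours.

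Slc38a2, which is induced when cells lack amino acids, had 85.91, 90.64 and 77.01 TPM in mannose CD8 libraries, against 62.13, 62.11 and 61.18 TPM in control CD8 libraries. The controls lay within 1 TPM of each other and every mannose library was above them. The log2 difference of 0.44 (SE 0.09, limma, adjusted p = 0.00854) was a 1.37-fold ratio of means. Per 100 TPM of carcinoma markers, it had 3.43 to 4.71 TPM in mannose CD8 libraries and 11.6 to 25.4 TPM in control CD8 libraries. The marker sums differed more between the groups than Slc38a2 did, so they set the order of this ratio. The call was lost when all 16 libraries were fitted together (adjusted p = 0.134) and when replicates 1 and 2 were averaged (0.0960).

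Slc3a2 had 174.74, 197.82 and 201.68 TPM in mannose CD8 libraries, against 260.31, 256.28 and 273.32 TPM in control CD8 libraries. It remained the most abundant of the 10 in both groups, and no library overlapped. The log2 difference was -0.46 (SE 0.08, limma, adjusted p = 0.00616), with 1.38 times as much in control as in mannose libraries. Its level per 100 TPM of T cell markers was 4.29 to 7.17 TPM in mannose CD8 libraries and 5.28 to 5.47 TPM in control CD8 libraries. Per 100 TPM of macrophage and monocyte markers, it was 11.1 to 16.9 TPM in mannose CD8 libraries and 5.57 to 6.26 TPM in control CD8 libraries. Those marker sums averaged 1325 TPM with mannose and 4550 TPM in control CD8 libraries, a wider gap than that of Slc3a2. The order of that ratio was therefore set by the markers. When the libraries were scaled to their T cell markers the difference was 0.11 (limma, adjusted p = 0.717), with a median of 0.60 over all genes. With replicates 1 and 2 averaged, the call was also lost, at an adjusted p of 0.0607.

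Slc38a1 had 14.62, 18.12 and 30.85 TPM in mannose CD8 libraries, against 39.63, 40.75 and 36.68 TPM in control CD8 libraries. Mannose library 3 was nearest to the controls, and it was also the mannose library with the highest sum of T cell markers, 4705 TPM against 2438 and 3113 TPM in mannose libraries 1 and 2. The log2 difference was -0.92 (SE 0.25, limma, adjusted p = 0.0287), with 1.84 times as much in control as in mannose libraries. Per 100 TPM of T cell markers, it had 0.582 to 0.656 TPM in mannose CD8 libraries and 0.724 to 0.869 TPM in control CD8 libraries. The call was lost on leaving out any 1 library other than mannose 3 (adjusted p between 0.0625 and 0.0974), and after scaling to T cell markers (-0.37, adjusted p = 0.204).

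The other light chain genes and the glutamine carrier did not pass. Slc7a5 had 27.92, 27.58 and 33.17 TPM in mannose CD8 libraries, against 34.41, 33.12 and 52.45 TPM in control CD8 libraries. Mannose library 3 lay just above control library 2, so the groups touched. The difference was -0.40 with an interval of -0.84 to 0.05 (limma, adjusted p = 0.141). Slc1a5 had 51.46, 58.47 and 74.24 TPM in mannose CD8 libraries, against 72.69, 76.49 and 73.93 TPM in control CD8 libraries. Here mannose libraries 1 and 2 were below every control and mannose library 3 among them. The difference was -0.29 with an interval of -0.61 to 0.03 (limma, adjusted p = 0.141). Without mannose library 3 it was -0.43 and passed, at an adjusted p of 0.0106. Slc7a6 had 20.23, 16.75 and 21.01 TPM in mannose CD8 libraries, against 19.01, 17.72 and 16.85 TPM in control CD8 libraries. Its groups were interleaved, and the difference was 0.10 with an interval of -0.18 to 0.39.

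The 2 lowest members are given apart, because the filter on low values bears on them. Slc6a9 had 2.28, 2.11 and 1.63 TPM in mannose CD8 libraries, against 0.56, 0.67 and 0.34 TPM in control CD8 libraries. It was tested only through the mannose group, as 0 of 3 controls reached 1 TPM, and had to differ to be tested. Its log2 difference was 0.98 (SE 0.18, limma, adjusted p = 0.00783), and the adjusted p was 0.0738 with replicates 1 and 2 averaged. In the annotation at hand, exons of Slc6a9 overlap B4galt2, Ccdc24 and Gm17114 on the opposite strand, and whether counting used strand is not given in the sources used here, so their reads cannot be told apart. B4galt2, a galactosyltransferase gene, had 8.51 ± 1.81 TPM in mannose CD8 libraries and 2.27 ± 0.40 TPM in control CD8 libraries. Slc43a1 had 0.37, 0.18 and 0.69 TPM in mannose CD8 libraries, against 0.23, 0.22 and 0.29 TPM in control CD8 libraries, and was not tested.

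**Figure D2:**
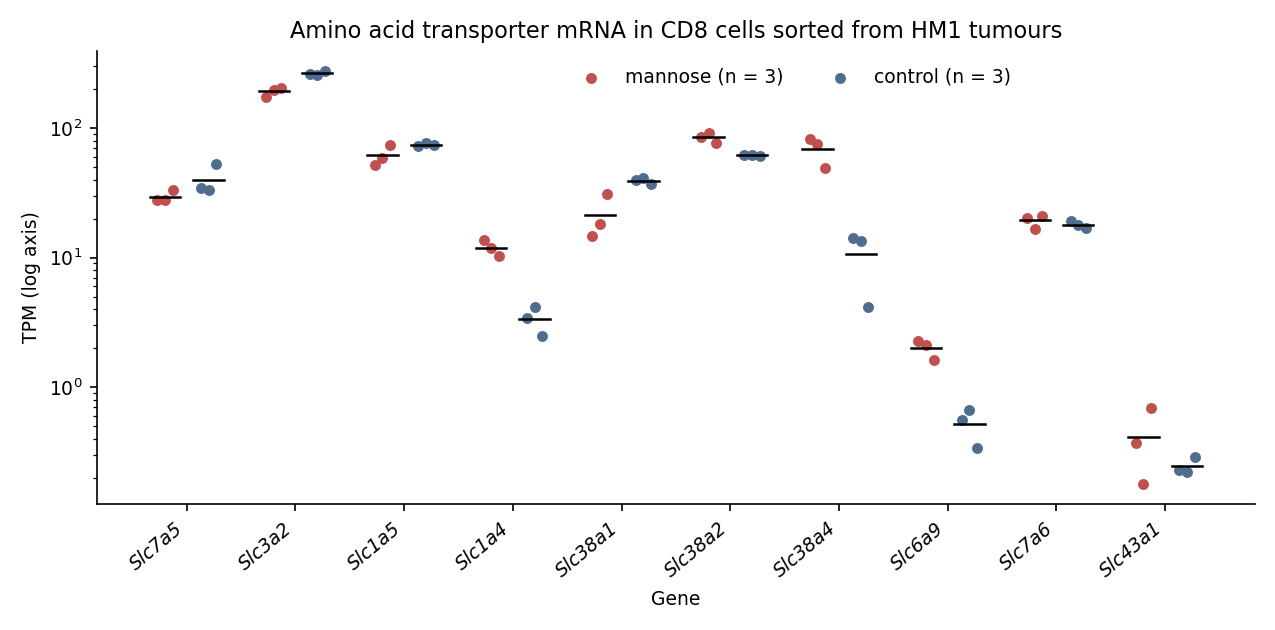
TPM of the 10 transporter genes in CD8 cells sorted from HM1 tumours, on a log axis, with 1 point per library (3 mannose on the left of each pair, 3 control on the right) and a bar at the mean. Slc1a4, Slc38a2 and Slc38a4 lie wholly above control with mannose, and Slc3a2 and Slc38a1 wholly below. Groups did not overlap for 51.4% of all genes tested in CD8 libraries. Slc6a9 also lies above control, but it was tested only through the mannose group and had to differ to be tested.

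**Figure D3:**
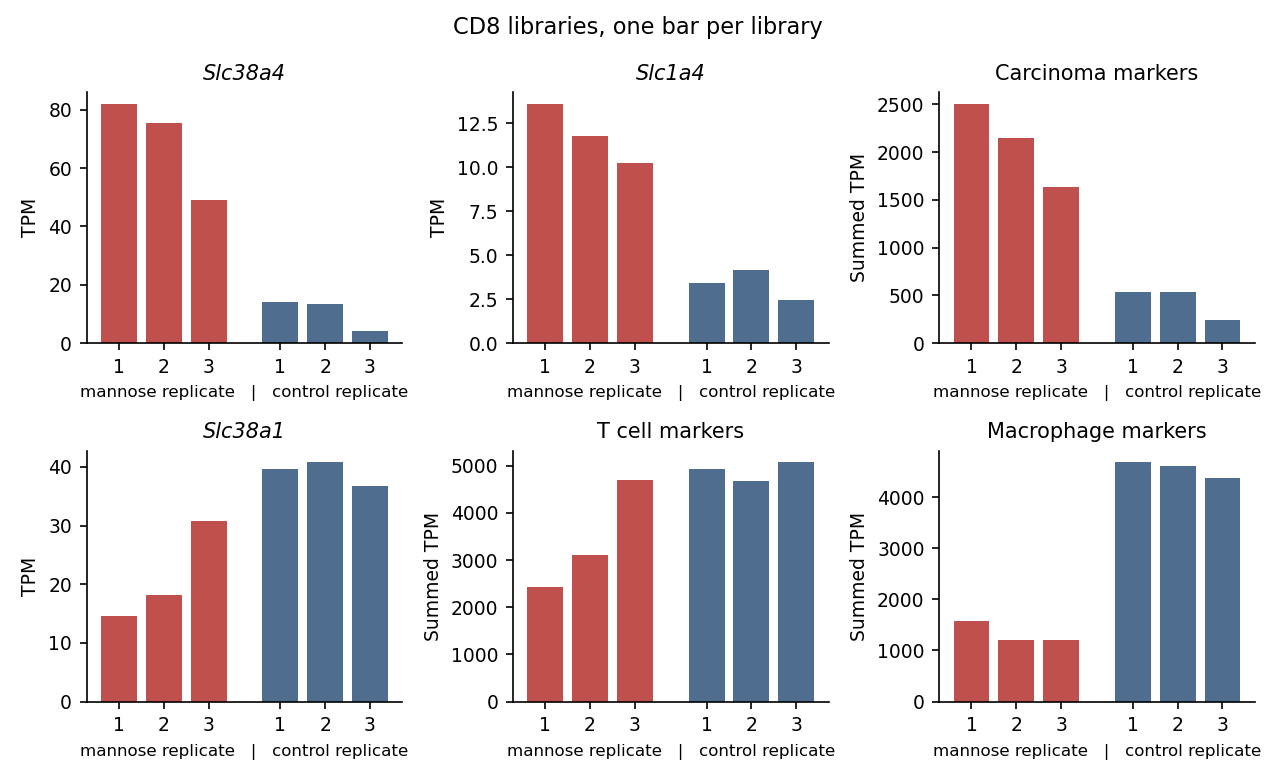
Level per CD8 library of Slc38a4, Slc1a4 and Slc38a1 (TPM), beside the summed TPM of carcinoma, T cell and macrophage markers, with mannose replicates 1 to 3 on the left and control replicates 1 to 3 on the right of each panel. Carcinoma markers reach 1634 TPM or more in each mannose library and at most 537 TPM in a control, and macrophage markers at most 1576 TPM with mannose and at least 4369 TPM in control.

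The sequence around the transcription start is shown for Slc1a4, Slc38a4, Slc38a2 and Slc3a2, because these genes moved together or apart in the CD8 libraries. Slc6a9, near 1 TPM and passing only through the mannose group, also has windows in RefSeq, which are not printed. Of the 10 members, 7 have such windows, 12 in all, and Slc7a5, Slc1a5 and Slc38a1 are named only. Slc38a4 and Slc6a9 have 3 windows each, and for Slc38a4 the window of the most upstream start is printed. Which start these libraries use was not tested. The windows below, from RefSeq on GRCm38.p6, run from 100 bases before to 20 bases after the start, 5′ to 3′ on the gene's strand. Capitals mark a match to TGATGNAA, a motif bound by ATF4 with its C/EBP partners, on either strand.
Slc1a4, chr11:20332694-20332813, minus strand: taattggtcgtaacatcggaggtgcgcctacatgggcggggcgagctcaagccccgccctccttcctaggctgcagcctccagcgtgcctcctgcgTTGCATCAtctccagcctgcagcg
Slc38a4, chr15:97055937-97056056, minus strand: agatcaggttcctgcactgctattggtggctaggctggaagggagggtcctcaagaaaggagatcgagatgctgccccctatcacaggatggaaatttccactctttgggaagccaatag
Slc38a2, chr15:96699709-96699828, minus strand: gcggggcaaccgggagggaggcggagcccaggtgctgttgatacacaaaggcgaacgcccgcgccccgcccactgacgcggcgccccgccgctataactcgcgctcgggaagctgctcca
Slc3a2, chr19:8713878-8713997, minus strand: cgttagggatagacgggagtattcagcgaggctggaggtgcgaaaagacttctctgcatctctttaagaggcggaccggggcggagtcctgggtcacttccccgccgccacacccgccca
Over the full windows of 250 bases before to 50 bases after the start, TGATGNAA was found in 1 of the 12, that of Slc1a4, where the match on the reverse strand begins 4 bases before the start. It was found in 3.97% of 32851 RefSeq windows of that length. The E-box CACGTG was found in 1 of the 12 member windows, that of Slc43a1, and in 7.15% of all windows. The motifs do not overlap in these windows. Slc38a1, Slc38a2 and Slc38a4 are consecutive protein-coding genes on chromosome 15, and in the CD8 libraries the first fell while the other two rose.

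The makeup of the 10 transporters differed between the CD8 groups. Slc3a2 held 39.0% of their summed TPM in mannose CD8 libraries and 51.5% in control CD8 libraries, and Slc38a4 held 14.1% in mannose CD8 libraries and 2.08% in control CD8 libraries. The sum itself was 473 to 499 TPM in mannose CD8 libraries and 505 to 522 TPM in control CD8 libraries. In the order of levels, Slc38a4 had rank 3 with mannose, where it overlapped with Slc38a2 and Slc1a5, and rank 7 in control, where it overlapped with Slc1a4. Slc1a5 had rank 2 in control CD8 libraries, clear of Slc38a2. The ratio of Slc3a2 to Slc7a5 had a median of 6.26 (range 6.08 to 7.17) in mannose CD8 libraries and 7.56 (5.21 to 7.74) in control CD8 libraries.

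Levels in CD8 cells and tumours are set side by side without a test, since the tables were normalized separately. With mannose, Slc38a1 averaged 21.2 TPM in CD8 libraries and 3.57 TPM in tumours, and in control it averaged 39.0 TPM in CD8 libraries and 2.66 TPM in tumours, a ratio of 14.7. Slc3a2, Slc1a5, Slc38a2 and Slc7a6 were also above the tumour range in both CD8 groups, with Slc1a5 in control at 74.4 TPM in CD8 libraries and 32.3 TPM in tumours. Slc38a4 and Slc1a4 went the other way in control. Slc38a4 averaged 10.6 TPM in control CD8 libraries and 86.4 TPM in control tumours, and Slc1a4 averaged 3.34 TPM in control CD8 libraries and 11.3 TPM in control tumours. With mannose the libraries of these genes overlapped between CD8 cells and tumours, at 68.8 TPM in CD8 libraries and 82.4 TPM in tumours for Slc38a4, and at 11.9 TPM in CD8 libraries and 10.1 TPM in tumours for Slc1a4.

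**Figure D4:**
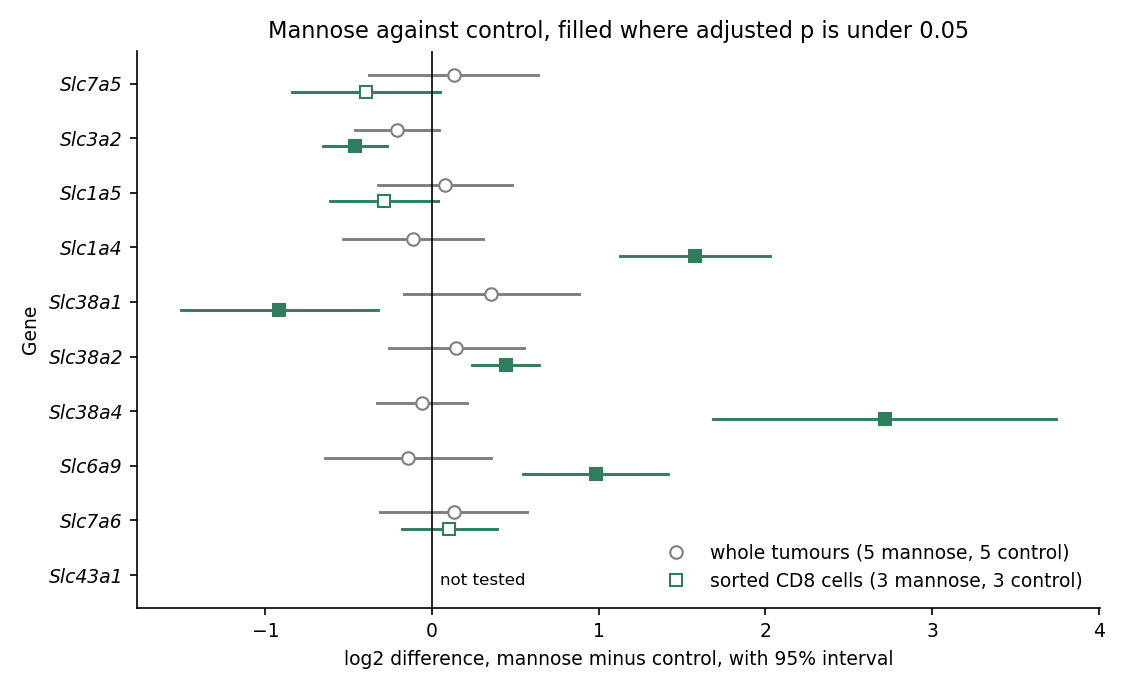
Log2 difference of each transporter, mannose minus control, with its 95% interval, in whole tumours (grey circles, 5 mannose and 5 control libraries) and in sorted CD8 cells (green squares, 3 mannose and 3 control libraries). Filled symbols have an adjusted p under 0.05 by limma. All tumour intervals include 0, and the CD8 differences run from -0.92 for Slc38a1 to 2.72 for Slc38a4.

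Whether the difference between mannose and control was itself unlike in CD8 cells and tumours was tested as an interaction over all 16 libraries, in which 18.7% of 15498 genes passed. Of the 10 transporters, 4 passed. The mannose minus control difference was higher in CD8 cells than in tumours for 3, against 11.0% of all genes. It was lower for 1, against 7.64%. Slc38a4 had an interaction of 2.78 (limma, adjusted p = 2.87e-04) and Slc1a4 of 1.69 (0.00107), and both calls held when replicates 1 and 2 of each CD8 group were averaged (0.00148 and 0.00713). Slc6a9 had an interaction of 1.13 (limma, adjusted p = 0.0250), lost on leaving out CD8 control 3, CD8 mannose 1 or CD8 mannose 2 (0.0728, 0.0712 and 0.0603). Slc38a1 had an interaction of -1.27 (limma, adjusted p = 0.0314), lost on leaving out any CD8 library but mannose 3 (0.0591 to 0.110), or tumour mannose 1 (0.0522) or 3 (0.0536). The other 6 did not pass, and for Slc3a2 the interaction was -0.25 with an interval of -0.59 to 0.10. Slc43a1, also among these 6, was tested only through the 3 mannose tumours that reached 1 TPM. No control tumour and no CD8 library reached that level for Slc43a1. Slc38a2 had an interaction of 0.30 (limma, adjusted p = 0.494), which passed without control tumour 1, at 0.49 and an adjusted p of 0.00922.

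Among other amino acid transporters of the plasma membrane and lysosome, the calls in CD8 cells were all falls. Of 33 listed, 18 were tested in the CD8 libraries, of which 5 fell and 0 rose, against 11.7% and 23.2% of all genes, with a median of -0.13 against 0.09 over all genes. Slc7a8, a further light chain of Slc3a2 for neutral amino acids, had 4.85 ± 0.97 TPM in mannose CD8 libraries and 33.2 ± 1.18 TPM in control CD8 libraries (SD, n = 3 each), a log2 difference of -2.56 (limma, adjusted p = 2.29e-04). The cystine carrier Slc7a11, which also binds Slc3a2, had 3.30 ± 0.61 TPM in mannose CD8 libraries and 19.9 ± 1.82 TPM in control CD8 libraries, a difference of -2.29 (limma, adjusted p = 2.90e-04). The arginine carrier Slc7a2 had 4.25 ± 0.81 TPM in mannose CD8 libraries and 27.4 ± 4.00 TPM in control CD8 libraries, a difference of -2.44. Slc43a2, a relative of Slc43a1, had 10.8 ± 2.24 TPM in mannose CD8 libraries and 23.4 ± 2.45 TPM in control CD8 libraries, a difference of -1.06, which was -0.52 and did not pass after scaling to T cell markers (limma, adjusted p = 0.121). The fifth was Slc38a9, a lysosomal carrier, at -0.63. Beside these genes, 11 of 11 macrophage and monocyte markers fell, with sums of at most 1576 TPM in mannose CD8 libraries and at least 4369 TPM in control CD8 libraries, and 5 of 6 neutrophil markers fell. The part of those cells in the fall of these transporters was not tested. In tumours 17 of the 33 were tested and 0 passed, with Slc43a3 (difference 0.50) and Slc7a2 (0.69) having the smallest p. Slc43a3 shares the family name of Slc43a1, and whether it carries amino acids was not tested.

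The ATF4 list holds the transcription factor and genes of the amino acid response, many of which it switches on when amino acids are scarce. Of 24 tested in the CD8 libraries, 7 rose and 3 fell, against 23.2% and 11.7% of all genes, and the median was 0.17 against 0.09 over all genes. Calls in this list were thus near the share over all genes. Vldlr, a lipoprotein receptor, had 28.9 ± 4.77 TPM in mannose CD8 libraries and 4.21 ± 2.00 TPM in control CD8 libraries, a difference of 2.60 (limma, adjusted p = 0.00236). Phgdh, the first enzyme of serine synthesis, had 108 ± 1.37 TPM in mannose CD8 libraries and 71.3 ± 5.46 TPM in control CD8 libraries (0.60, adjusted p = 0.00295 by limma). Trib3, a pseudokinase, rose by 0.75, and Asns, which makes asparagine, had 24.1 ± 1.96 TPM in mannose CD8 libraries and 17.0 ± 1.83 TPM in control CD8 libraries (0.48, adjusted p = 0.0208 by limma). Beside this list, 4 of the 5 carcinoma markers tested and 6 of 7 fibroblast markers were higher in the mannose CD8 libraries, and their part in it was not tested. The Asns call was lost without CD8 control 1 or 2 or mannose 1 or 2 (adjusted p of up to 0.0846), with median-ratio scaling (0.0603), with quantile normalization (0.0990) and with replicates 1 and 2 averaged (0.180). In tumours 0 of 24 passed. Asns had 23.3 ± 1.79 TPM in mannose tumours and 29.4 ± 3.71 TPM in control tumours, with a difference of -0.32 that did not pass (limma, adjusted p = 0.754).

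Genes through which mTORC1 senses amino acids were called in both directions in CD8 libraries. Of 26 tested in CD8 libraries, 3 rose and 3 fell, against 23.2% and 11.7% of all genes, with a median of -0.04 against 0.09. Fnip2, a partner of folliculin, had 7.08 ± 0.29 TPM in mannose CD8 libraries and 17.4 ± 1.53 TPM in control CD8 libraries, a difference of -1.18 (limma, adjusted p = 0.00122). After scaling to T cell markers it was -0.66 and did not pass (limma, adjusted p = 0.0979). Nprl3, a subunit of the GATOR1 brake on mTORC1, had 35.1 ± 3.34 TPM in mannose CD8 libraries and 21.6 ± 1.57 TPM in control CD8 libraries, a difference of 0.68. Wdr59, of the GATOR2 complex, rose by 0.83 and Rragc, a Rag GTPase, fell by 0.35, and both calls were lost without CD8 mannose 2, at adjusted p of 0.0506 and 0.0523. After scaling to T cell markers Rragc was at 0.21. In tumours 0 of 25 passed, and the smallest p belonged to the leucine sensor Sesn1, at 8.56 ± 1.74 TPM in mannose tumours and 5.85 ± 1.66 TPM in control tumours (limma, adjusted p = 0.754).

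Of 17 genes of glutamine, glycine and branched-chain amino acid metabolism, 4 rose and 2 fell in CD8 libraries. That share of calls was near the 34.9% of all genes, and the median was 0.02 against 0.09. Got1, the cytosolic aspartate aminotransferase, had 68.5 ± 2.69 TPM in mannose CD8 libraries and 101 ± 3.53 TPM in control CD8 libraries, a difference of -0.56 (limma, adjusted p = 0.00276), which was 0.0092 after scaling to T cell markers. Shmt1, which interconverts serine and glycine, had 17.4 ± 2.82 TPM in mannose CD8 libraries and 8.42 ± 0.97 TPM in control CD8 libraries, a difference of 0.96. Gcat, of threonine breakdown, rose by 1.23, and Gldc, which cleaves glycine, fell by 0.58. After scaling to T cell markers Gldc was at -0.035 and its call was lost (limma, adjusted p = 0.918). In tumours 0 of 17 passed.

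**Figure D5:**
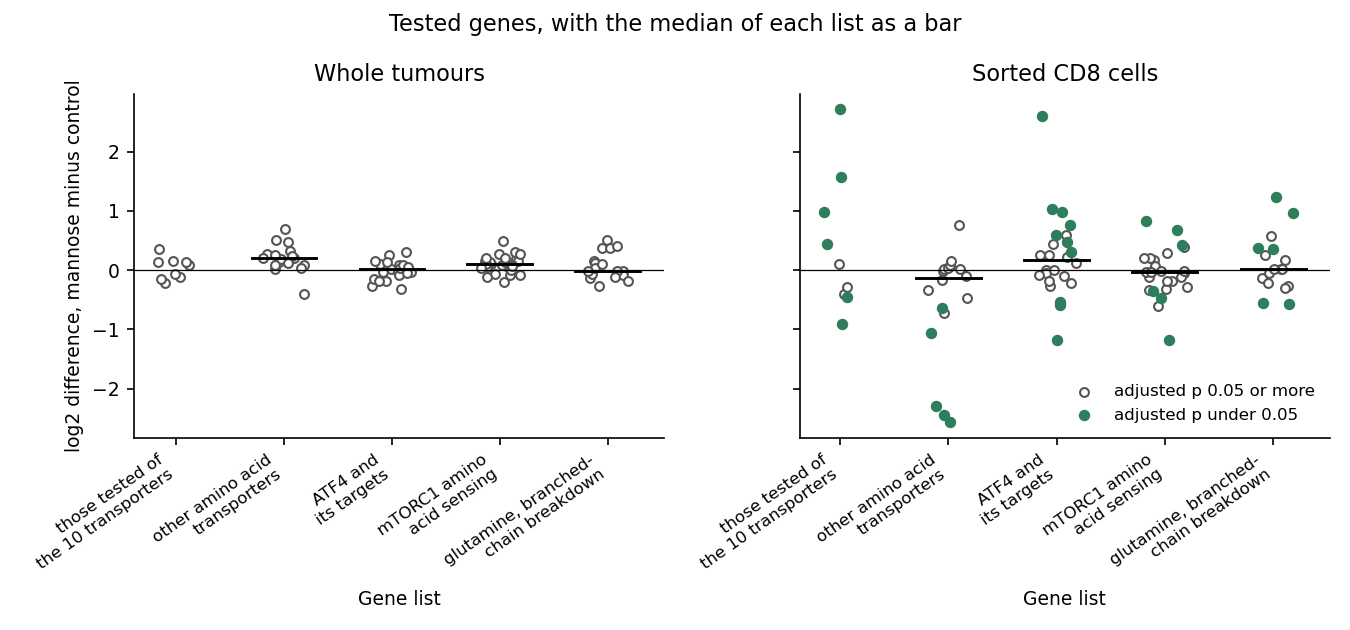
Log2 difference, mannose minus control, of each tested gene among the 10 transporters and in 4 lists of related genes, in whole tumours (left) and sorted CD8 cells (right). Each point is a gene, filled where the adjusted p is under 0.05, and bars are the medians of the 4 lists. No tumour point is filled, and the 4 lowest CD8 points of the other transporters lie between -2.56 and -1.06.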

How the data were processed

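Bulk mRNA libraries of 10 whole HM1 tumours and 6 samples of sorted CD8 cells were compared. The authors deposited 1 table of TPM per library, with gene symbols. That unit follows from the values: they have 2 decimals and sum to 993815 to 994712 in tumours and 997232 to 997809 in CD8 libraries. Tools named in the submitters' processing notes are HISAT, RSEM and fastp, with GRCm39 as the build and no versions or roles. Entries that share a symbol were summed. TPM keep no read totals, so the depth is unknown and counting error has no interval here.

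Groups follow the sample labels. Differences were tested with limma 3.58.1 (R 4.3.3) and a trended prior variance, on the log2(TPM + 1) scale, which understates the change of low genes. Genes needed at least 1 TPM in 5 of 10 tumour, 3 of 6 CD8 or, for the interaction, 3 of 16 libraries. P-values were adjusted over all genes tested (Benjamini-Hochberg) and called under 0.05. Correlations have permutation p-values from 100000 resamples. The fits were tested on simulated data.

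The 10 members, the 4 lists of related genes (103 genes, of which 1, Samtor, was not matched), the 8 lists of markers (61 genes) and the alternatives were chosen with earlier results of these data known. Named from each list are up to 4 genes past the threshold with the smallest p, or, where none passed, the 2 with the smallest p. One gene that this rule names is not reported here. Slc38a9, Castor1 and Rragb are named beyond the CD8 rule or through the interaction. Marker levels are sums of TPM. Alternatives changed the pseudocount, the filter, the scaling, the weights, the block and the libraries used. Promoter sequences and gene overlaps come from annotations of GRCm38, an older build than that of the files, so no gene coordinates of the files are given. Python 3.11.15 and matplotlib 3.10.9 were used for the rest.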

Additional observations from a re-analysis of the deposited data

Results flagged for a closer look

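Among 52 groups of tumour values checked for a library far from the others, 7 were flagged, where chance flags about 1 in 20. In control tumour 1 Slc38a4 (64.93 TPM) and Slc7a6 (5.56 TPM) were far below the other controls. The other 5 were high values of mannose tumour 3. They were Slc43a3 at 18.59 TPM and the sums of endothelial markers (64.15 TPM), fibroblast markers (1897.33 TPM), macrophage and monocyte markers (4777.97 TPM) and skeletal muscle markers (377.64 TPM).

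The difference between mannose and control was unlike in CD8 cells and tumours, by limma's interaction test, for 4 transporters: Slc38a4 (2.78), Slc1a4 (1.69), Slc6a9 (1.13) and Slc38a1 (-1.27). Among the other transporters it was so for Slc7a2 (-3.13), Slc7a8 (-3.05) and Slc7a11 (-2.50). Slc7a8 had 8.33 ± 3.46 TPM in mannose tumours and 5.72 ± 2.17 TPM in control tumours, beside its lower level with mannose in CD8 libraries. From the ATF4 list Vldlr (2.51), Trib3 (0.90), Asns (0.80) and Phgdh (0.78) were flagged in the same way. Asns had a lower mean in mannose than in control tumours, where the groups overlapped and the difference did not pass (limma, adjusted p = 0.754). It was higher in mannose than in control CD8 libraries, a call lost with replicates 1 and 2 averaged (limma, adjusted p = 0.180). The mTORC1 list gave Fnip2 (-1.38), Rragb (-0.76), Castor1 (0.51) and Rragc (-0.49). With CD8 replicates 1 and 2 averaged, none of these 4 passed (limma, adjusted p between 0.0608 for Fnip2 and 0.149 for Rragc). Rragb had at most 0.29 TPM in any tumour, and its CD8 difference of -0.61 did not pass (limma, adjusted p = 0.0608). Genes of amino acid metabolism gave Gcat (1.34), Shmt1 (0.87) and Got1 (-0.54). With those replicates averaged Shmt1 and Got1 did not pass (0.0778 and 0.115), nor did they with no filter on low values (0.0524 and 0.0526). Leaving out 1 library also ended the interaction calls of Rragb, Castor1, Rragc, Shmt1 and Got1 (adjusted p of up to 0.0767, 0.106, 0.104, 0.0788 and 0.0900).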

How the results depend on the processing

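The CD8 differences of Slc38a4 and Slc1a4, and their interactions, kept their direction and call under every alternative run. None of these alternatives scaled to carcinoma markers, whose sums differed between the CD8 groups, so the part of carcinoma cells was not tested. In tumours 0 genes passed under each alternative. In CD8 libraries 8631 genes passed with array weights, 1787 with replicates 1 and 2 averaged, and 2695 to 5697 with 1 library left out (2922 without mannose 1, 2695 without mannose 2), against 4980. The interaction had 6323 with array weights, 1678 with CD8 replicates averaged and 1884 to 4010 with 1 library left out, lowest without CD8 mannose 1, against 2896. Averaging also ended the CD8 calls of Asns, Trib3, Wdr59, Rragc, Gcat and Gldc. Slc6a9 has no CD8 value without a mannose library, since it then fails the filter.

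Scaling to T cell markers, which put the median of all genes at 0.60, turned the CD8 differences of Slc7a5 (0.16), Slc3a2 (0.11), Slc1a5 (0.27), Rragc (0.21) and Got1 (0.0092). Slc7a6 in CD8 was -0.072 after quantile normalization and -0.063 with array weights. Slc1a5 in CD8 passed with median-ratio scaling (adjusted p = 0.0464) and array weights (0.00379, limma), and Slc7a5 with array weights (0.0306). In tumours, uncalled values near 0 changed sign. After quantile normalization Slc1a5 was -0.021 and Slc7a6 -0.037, and median-ratio scaling put Slc1a5 at -0.030. With array weights Slc38a2 was -0.13 and Slc7a6 -0.012. Without control 1 and mannose 3 together Slc7a5 was -0.041, Slc1a5 -0.010, Slc38a2 -0.051 and Slc7a6 -0.019. With 1 tumour left out the ranges were -0.073 to 0.28 for Slc7a5, -0.079 to 0.18 for Slc1a5, -0.046 to 0.23 for Slc38a2 and -0.062 to 0.21 for Slc7a6. The interaction of Slc7a6 was 0.024 with CD8 replicates averaged and -0.10 to 0.17 with 1 library left out. After median-ratio scaling the r of Slc3a2 was -0.20 with Slc7a5 and -0.43 with Slc7a8, and with 1 tumour left out, an alternative chosen after seeing the data, that with Slc7a6 was -0.25 to 0.072. Quantile normalization put the median of all genes at -0.005 in tumours and -0.03 in CD8 libraries, against 0.12 and 0.09. The cause of these changes was not tested.

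Replicate numbers did not pair the tumours: deviations of same-numbered tumours correlated at -0.51 to 0.28, with 2 of 5 above 0.1. In CD8 libraries same-numbered pairs correlated at 0.06 to 0.16, with 1 of 3 above 0.1. CD8 pairs of unlike number lay between -0.16 and 0.11, so whether the numbers pair the CD8 samples is not settled. With the replicate block 4838 genes passed in CD8 libraries, 2493 in the interaction and 0 in tumours. The interactions of Slc38a1 (adjusted p = 0.0576), Castor1, Got1, Rragb, Rragc and Shmt1 did not pass with it. Depth is unknown and limits the genes near 1 TPM, Slc6a9 and Slc43a1.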
